A study of Mus musculus and Homo sapiens with 107 samples.

Results

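Immediate early genes are transcribed within minutes of serum, growth factor or stress signals and need no new protein for it. Many of them are switched on through serum response factor, SRF, which sits at their promoters with partner proteins that are phosphorylated by the ERK pathway. Their products then act as transcription factors, as regulators of survival and stress responses, or as brakes on the same signalling, among them a phosphatase of MAP kinases and a protein that triggers decay of short-lived mRNAs. The genes described here are 9 of this kind, taken by a fixed set of identifiers, out of 25530 gene identifiers in the count tables of the series. They are EGR1 (ENSG00000120738), EGR2 (ENSG00000122877), EGR3 (ENSG00000179388), IER2 (ENSG00000160888), IER3 (ENSG00000137331), IER5 (ENSG00000162783), DUSP1 (ENSG00000120129), ZFP36 (ENSG00000128016) and SRF (ENSG00000112658), with the symbols as the selection of the genes gives them.

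The study asked what happens to enhancers, promoters and transcripts when the SWI/SNF chromatin remodeler is inhibited. RNA was measured in 2 established human lines from non-small cell lung cancer, each treated for 12 h, with 3 libraries a group. The groups were H1299 with 5 µM BRM014, H1299 with DMSO, A549 with 5 µM BRM014 and A549 with DMSO. BRM014 binds BRM and BRG1, the ATPases that drive SWI/SNF, at an allosteric site and blocks them, and DMSO is its solvent, given as 0.05% in the sample titles and as 0.5% in the treatment field. Both lines are labelled wild type and carry no added transgene, and both are known to lack functional BRG1 and to carry an activated RAS gene, so the DMSO groups share these features with the BRM014 groups. H1299 cells grew in RPMI and their libraries had 8 PCR cycles, whereas A549 cells grew in F12-K and their libraries had 9, so that differences of medium and library amplification cannot be told apart from those of the line. No label says that the libraries came from separate cultures, and p-values may then measure technical spread alone.

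Libraries held 30602193 to 41780029 counts in H1299 with BRM014 and 28412113 to 40072734 in H1299 with DMSO. Those of A549 held 42417643 to 44910378 counts with BRM014 and 40684360 to 50177678 with DMSO. No pair of libraries within a group was as alike as counting noise alone would make it. Of the 3 A549 BRM014 libraries, 2 carry no replicate number of their own in the table and are called a and b here. Levels are given as CPM, the count scaled to library size, after trimmed-mean scaling over all 12 libraries, and changes as log2 fold changes from edgeR's quasi-likelihood test, with Benjamini-Hochberg adjustment over all genes tested and a threshold of 0.05. The tables give no gene lengths, so levels are compared between groups and not between genes. All levels are relative to the rest of the RNA, and in bulk RNA a change in every cell and a change in the share of cells that express a gene cannot be told apart.

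In H1299 cells, BRM014 raised ZFP36 and lowered IER5 and DUSP1, so that 3 of the 7 genes with enough counts to test passed the threshold, and no change reached 2-fold. How many of all genes passed at 2-fold or more in H1299 was not counted. In A549 cells, 4 of 7 passed: EGR1 and IER2 rose, and IER5 and DUSP1 fell. EGR1 rose 5.00-fold and IER5 fell to 42.1% of its DMSO level there, and these 2 passed a change of at least 2-fold. EGR1 entered the A549 test only through its BRM014 libraries, where it was higher. DUSP1 fell by nearly the same fold in both lines, while EGR1, IER2, IER5 and ZFP36 responded differently in the lines by a test of the difference. Over all genes, 22% passed in H1299 (9.29% higher and 12.7% lower), and in A549 37% passed (17.7% higher and 19.4% lower), with 6.49% passing at 2-fold or more. Scaling by library totals instead puts those splits at 14.2% higher and 10.1% lower in H1299, and at 25.1% higher and 16.1% lower in A549. Counts of 3 and 4 among 7 genes are too few to set against those shares with any precision. The median log2 fold change of the tested members was -0.07 in H1299, against 0.0029 for all genes, and -0.13 in A549, against 0.02 for all genes. The median size of the change was 0.22 for the members and 0.10 for all genes in H1299, and 0.35 for the members and 0.16 for all genes in A549, on the log2 scale.

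**Figure D1:**
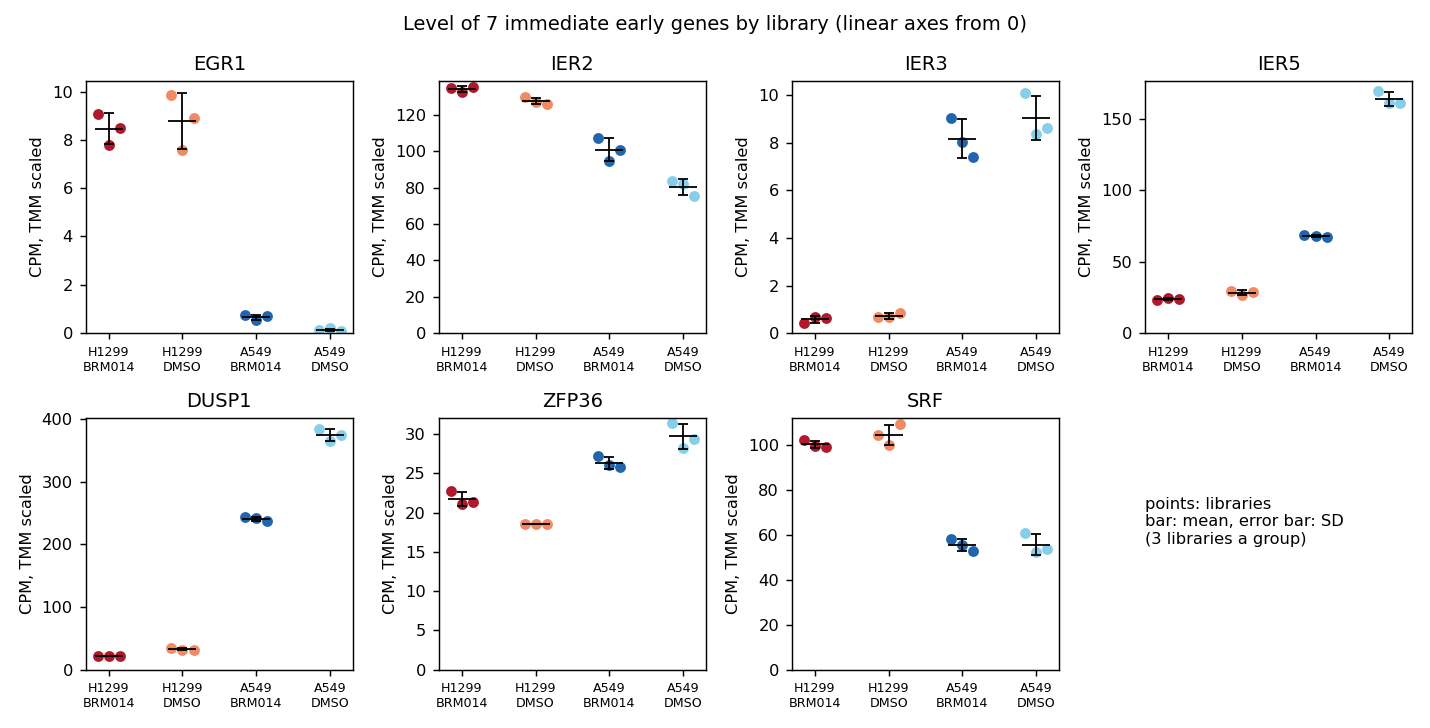
Levels of the 7 members that could be tested, in CPM after trimmed-mean scaling on linear axes from 0. Each point is 1 of 3 libraries a group, the bar is the mean and the error bar the SD. IER5 and DUSP1 are lower with BRM014 than with DMSO in both lines, and EGR1 is near 0 in A549 with DMSO.

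EGR1, EGR2 and EGR3 encode zinc finger transcription factors that bind GC-rich sites and pass the early signal on to later genes. EGR1 had 9.08, 7.80 and 8.51 CPM in H1299 with BRM014, against 9.87, 7.56 and 8.91 CPM in H1299 with DMSO. The BRM014 libraries all lay inside the range of the DMSO libraries in that line. In A549 with BRM014, EGR1 had 0.739, 0.520 and 0.695 CPM, from 30, 22 and 28 counts, against 0.119, 0.191 and 0.0885 CPM with DMSO, from 5, 7 and 4 counts. Every A549 library with BRM014 stood above every one with DMSO, but all 6 stood far below the 6 H1299 libraries. The mean was 8.46 ± 0.641 CPM in H1299 with BRM014 and 8.78 ± 1.16 CPM with DMSO, and in A549 it was 0.651 ± 0.116 CPM with BRM014 and 0.133 ± 0.0527 CPM with DMSO (SD, n = 3 each).

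In H1299 the log2 fold change of EGR1 was -0.07 (SE 0.10, 95% interval -0.26 to 0.13, edgeR adjusted p = 0.695). In A549 it rose by 2.32 on the log2 scale (SE 0.35, 95% interval 1.55 to 3.09), with an edgeR adjusted p of 0.000266. The H1299 interval leaves room for a change of either sign, but not for one of the size seen in A549. In size the A549 rise exceeded the change of 99.1% of all genes tested there. With 4 to 7 counts a library in A549 with DMSO, EGR1 passed the filter on low counts there only through its BRM014 libraries. A gene let in that way can hardly show anything but a large rise, so this rank is partly set by the filter. The fold rests on few counts in DMSO: the summed counts alone give a ratio of 5.28, with an exact 95% interval of 3.06 to 9.67 that covers counting error only. With a minimum of 5 CPM in 3 libraries EGR1 was not tested in A549, and 3 members passed there.

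EGR2 and EGR3 were close to the limit of detection in every group and failed the filter on low counts in both lines, so neither has a p-value. EGR2 had 8, 2 and 5 counts in H1299 with BRM014, against 0, 0 and 3 counts with DMSO, and these groups overlap. Summed over the libraries and set against depth, EGR2 in H1299 was 4.79 times as high with BRM014 as with DMSO, with an exact interval of 1.36 to 25.8 for counting error only. In A549, EGR2 had 1, 0 and 2 counts with BRM014, against 3, 1 and 0 with DMSO, a ratio of 0.791 (0.116 to 4.68). At 3 counts a library, the floor of detection was 0.0718 to 0.0980 CPM in H1299 with BRM014, 0.0749 to 0.106 CPM in H1299 with DMSO, 0.0668 to 0.0707 CPM in A549 with BRM014 and 0.0598 to 0.0737 CPM in A549 with DMSO.

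EGR3 had fewer counts with the inhibitor in H1299, with 0, 4 and 1 counts with BRM014, against 10, 4 and 5 counts with DMSO. Its ratio there was 0.252, with an exact counting interval of 0.0736 to 0.698. After scaling, the highest BRM014 library, at 0.0894 CPM, lay below the lowest DMSO library, at 0.119 CPM, although both had 4 counts. In A549, EGR3 had 1, 0 and 2 counts with BRM014, against 1, 1 and 1 with DMSO, and the ratio was 1.06 (0.141 to 7.88). A change of EGR2 or EGR3 in A549 was not detectable at this depth.

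**Figure D2:**
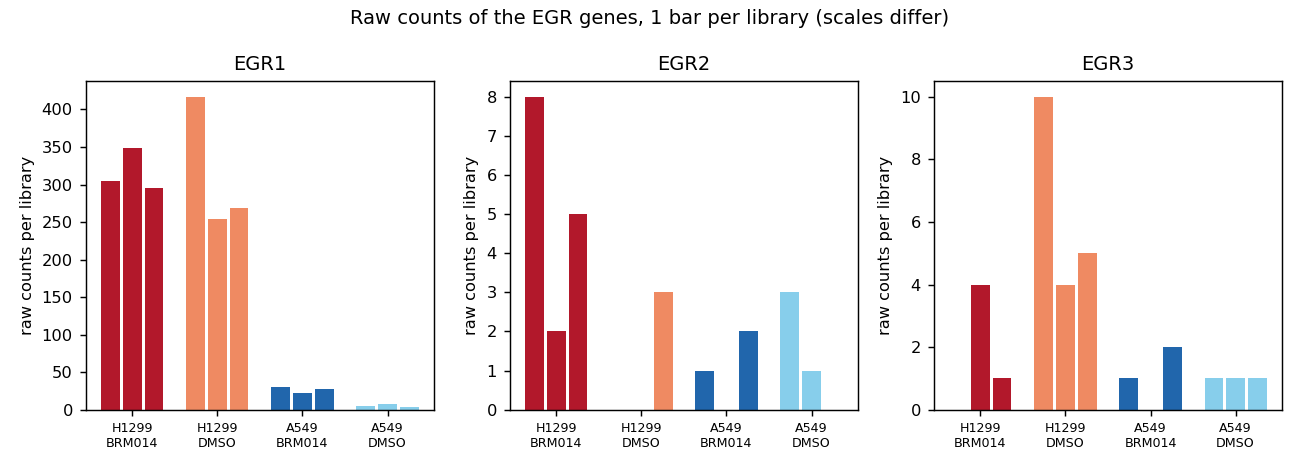
Raw counts of EGR1, EGR2 and EGR3, with 1 bar per library on linear axes from 0 that differ between the panels. EGR1 has 254 to 417 counts in the H1299 libraries and 4 to 30 in those of A549, while EGR2 and EGR3 do not exceed 10 counts in any library.

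IER2 encodes a nuclear protein that regulates transcription. It had 134.8, 132.5 and 135.2 CPM in H1299 with BRM014, against 129.7, 127.2 and 126.2 CPM with DMSO. In A549 it had 107.1, 94.8 and 100.7 CPM with BRM014, against 83.6, 82.1 and 75.5 CPM with DMSO. The BRM014 libraries were the higher ones in both lines, with no overlap, but the gap in H1299 was narrow. The log2 fold change of 0.07 in H1299 did not pass the threshold (SE 0.03, 95% interval 0.0033 to 0.13, edgeR adjusted p = 0.132), whereas the rise of 0.35 in A549 did (SE 0.06, edgeR adjusted p = 0.000552). With library totals as the scaling, IER2 passed in H1299 as well, at 0.10 (edgeR adjusted p = 0.0176, with 0.0176 to 0.357 over all alternatives).

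IER3, a stress-induced regulator of cell survival and of ERK signalling, did not pass the threshold in either line. It had 0.417, 0.671 and 0.635 CPM in H1299 with BRM014, against 0.663, 0.655 and 0.861 CPM with DMSO, and the groups overlap. In A549 it had 9.04, 8.05 and 7.42 CPM with BRM014, against 10.1, 8.39 and 8.65 CPM with DMSO, again with overlap. The log2 fold change was -0.31 in H1299 (SE 0.31, 95% interval -0.94 to 0.32, edgeR adjusted p = 0.547) and -0.13 in A549 (SE 0.10, 95% interval -0.35 to 0.09, edgeR adjusted p = 0.356). Only 14 to 30 counts of IER3 per library stand behind the H1299 value. IER3 lies in the MHC region, for which hg38 holds alternate haplotypes, and how reads shared with those copies were counted is not given in the sources used here, so its level is uncertain.

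IER5, a nuclear regulator linked to the heat shock factor HSF1, fell in both lines but to unequal degrees. In H1299 it had 23.1, 24.5 and 23.5 CPM with BRM014, against 29.7, 26.6 and 28.7 CPM with DMSO. In A549 it had 68.9, 67.9 and 67.0 CPM with BRM014, against 169.3, 160.9 and 161.4 CPM with DMSO. The groups did not overlap in either line, and the A549 libraries with BRM014 stood above all H1299 libraries. The log2 fold change was -0.26 in H1299, to 83.6% of DMSO (SE 0.05, edgeR adjusted p = 0.000445), and -1.25 in A549 (SE 0.04, 95% interval -1.34 to -1.16, edgeR adjusted p = 1.16e-09). In A549 this change was larger in size than that of 95.7% of the genes tested.

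DUSP1, a nuclear phosphatase that switches off MAP kinases, fell by nearly the same fold in the lines from very different levels. H1299 had 21.8, 21.5 and 21.2 CPM with BRM014, against 34.9, 31.5 and 32.2 CPM with DMSO. A549 had 243.5, 241.8 and 237.1 CPM with BRM014, against 383.6, 364.0 and 374.0 CPM with DMSO. In each line every BRM014 library lay below every DMSO library. DUSP1 fell to 65.2% of DMSO in H1299 (log2 fold change -0.62, SE 0.05, edgeR adjusted p = 1.92e-11) and to 65.4% in A549 (-0.61, SE 0.03, edgeR adjusted p = 8.24e-08). The same fold ranked higher in H1299, where it exceeded 94.1% of the genes tested, than in A549, where it exceeded 85.9%.

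ZFP36, also called tristetraprolin, binds AU-rich elements and brings short-lived mRNAs to decay. It had 22.7, 21.1 and 21.4 CPM in H1299 with BRM014, against 18.6, 18.6 and 18.5 CPM with DMSO, so all BRM014 libraries were higher. In A549 it had 27.2, 26.1 and 25.8 CPM with BRM014, against 31.4, 28.3 and 29.4 CPM with DMSO, so all BRM014 libraries were lower. The rise in H1299 was 1.17-fold (log2 0.22, SE 0.06, edgeR adjusted p = 0.00545). The value in A549 was -0.15 (SE 0.06, 95% interval -0.28 to -0.02) and missed the threshold with an edgeR adjusted p of 0.0721. It passed in the fit of both lines together, at -0.17 (edgeR adjusted p = 0.0165), and without A549 BRM014 library a, at -0.19 (edgeR adjusted p = 0.0321), within a span of 0.0165 to 0.218 over all alternatives.

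SRF, the factor through which many of these genes are induced, passed in neither line. It had 102.2, 99.6 and 99.5 CPM in H1299 with BRM014, against 104.4, 100.3 and 109.4 CPM with DMSO, where only the lowest DMSO library falls inside the BRM014 range. In A549 it had 58.3, 55.7 and 53.1 CPM with BRM014, against 61.0, 52.5 and 53.7 CPM with DMSO, with full overlap. The log2 fold change was -0.06 in H1299 (SE 0.04, 95% interval -0.13 to 0.01, edgeR adjusted p = 0.256) and 0.02 in A549 (SE 0.07, 95% interval -0.12 to 0.16, edgeR adjusted p = 0.84). The intervals leave room only for changes of SRF mRNA smaller than those of DUSP1 and IER5 in A549, and they say nothing of SRF protein or its activity.

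Libraries with BRM014 and with DMSO did not overlap for 4 of 7 tested members in H1299 (IER2, IER5, DUSP1 and ZFP36), beside 35.2% of all genes, and for 5 of 7 in A549 (these 4 and EGR1), beside 48.2% of all genes. EGR1 entered the A549 test only through its BRM014 libraries, so its lack of overlap there was largely set by the filter. In A549, BRM014 library a was the highest of its group for all 7 tested members and DMSO replicate 1 for 6 of them, all but EGR1. Both libraries led their groups at once for those 6 members and for 26.1% of all genes tested. The part of this pattern in the A549 results was not tested. Leaving out libraries a and b, a choice made after seeing the data, left 1 BRM014 library there, replicate 3. The DMSO group still held replicate 1, and these libraries deviated from their group means in opposite ways over genes (r = -0.628). That fit therefore cannot show the part of the pattern. Its log2 fold changes in A549 were 2.40 for EGR1, 0.33 for IER2, -1.29 for IER5 and -0.65 for DUSP1.

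**Figure D3:**
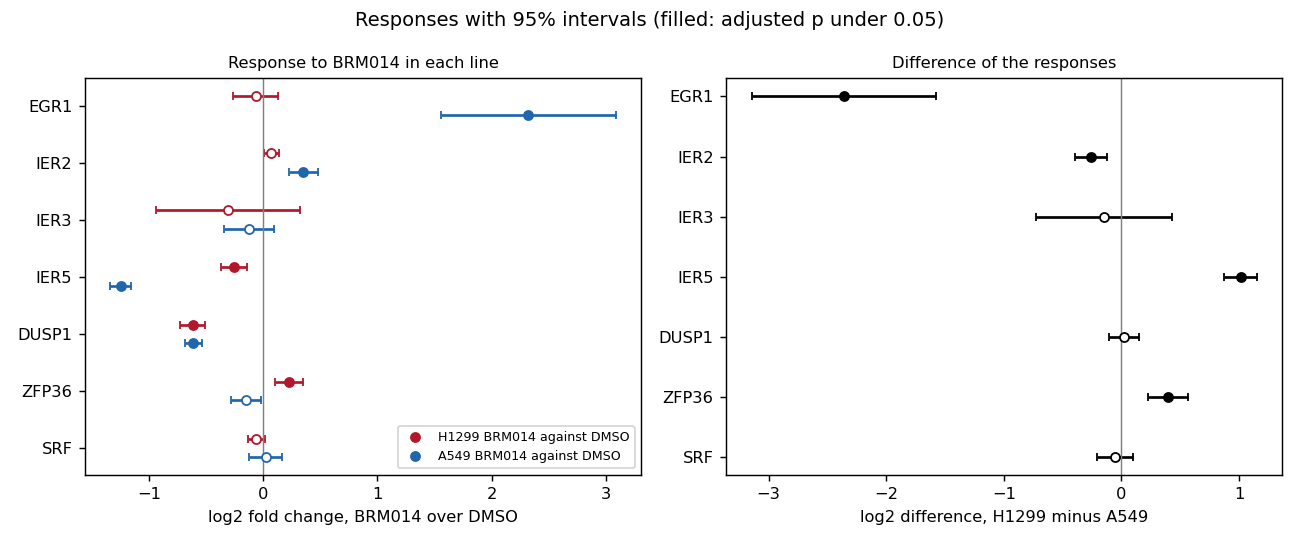
Left, log2 fold change of BRM014 over DMSO in each line; right, the response in H1299 minus that in A549. Points are estimates from 3 libraries a group, bars are 95% intervals, and filled points passed an adjusted p of 0.05. DUSP1 sits at -0.62 in H1299 and -0.61 in A549, whereas EGR1 is at -0.07 in H1299 and 2.32 in A549.

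The responses of the lines were set against each other in a fit of all 12 libraries with an interaction term, given as the response in H1299 minus that in A549. Of 7 tested members 4 passed, beside 19.5% of all genes. EGR1 differed most, at -2.36 (SE 0.38, 95% interval -3.15 to -1.58, edgeR adjusted p = 5.34e-05), with no call in H1299 and a rise in A549. IER5 differed by 1.01 (SE 0.07, edgeR adjusted p = 6.2e-11), as its fall was deeper in A549. IER2 differed by -0.26 (SE 0.06, edgeR adjusted p = 0.00576) and ZFP36 by 0.40 (SE 0.08, edgeR adjusted p = 0.000951). All ZFP36 libraries with BRM014 were higher than with DMSO in H1299 and lower in A549, although the A549 value did not itself pass.

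For the other 3 members no difference between the lines was found. DUSP1 responses differed by 0.02, with a 95% interval of -0.11 to 0.15 (edgeR adjusted p = 0.88), so a difference above 0.15 on the log2 scale lies outside that interval. The interval for SRF was -0.21 to 0.09 around -0.06 (edgeR adjusted p = 0.648). That of IER3, -0.72 to 0.43 around -0.15, is too wide to tell like from unlike responses (edgeR adjusted p = 0.773). The median size of the difference was 0.26 for the tested members and 0.19 for all genes.

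The lines differed from each other in all 7 tested members under each treatment. This is close to the background, since 85.5% of all genes passed between the lines with BRM014 and 85.7% with DMSO, but the members' differences were large, with a median size of 1.52 against 0.80 for all genes with BRM014 and of 2.53 against 0.84 with DMSO. EGR1, IER2 and SRF were higher in H1299 and IER3, IER5, DUSP1 and ZFP36 were higher in A549. The comparisons with BRM014 and the interaction use the same libraries and are not independent of each other.

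With DMSO, EGR1 showed the largest ratio between the lines among the tested members. It was 66.5-fold higher in H1299 than in A549 (log2 6.06, SE 0.21, 95% interval 5.62 to 6.49, edgeR adjusted p = 9.62e-19). Only 16 counts in all stand behind EGR1 in A549 with DMSO. The summed counts, without trimmed-mean scaling, give a ratio of 80.6, with an exact interval of 49.4 to 142 for counting error only. The SE was 0.38 with DESeq2 and 0.40 with limma-voom, so the edgeR interval may be too narrow. With BRM014 EGR1 was 12.9-fold higher in H1299 (log2 3.69, 95% interval 3.37 to 4.02, edgeR adjusted p = 5.58e-17), so the lines were closer under the inhibitor but still far apart. EGR3 summed to 5 counts in H1299 and 3 in A549 with BRM014, and to 19 in H1299 and 3 in A549 with DMSO. The DMSO ratio was 8.69, with an exact counting interval of 2.56 to 45.9, and the BRM014 ratio was 2.08 (0.404 to 13.4). EGR2 gave 6.23 with BRM014 (1.76 to 33.6) and 1.03 with DMSO (0.151 to 6.08).

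SRF itself was 1.80-fold higher in H1299 with BRM014 (edgeR adjusted p = 1.16e-13) and 1.88-fold higher with DMSO (edgeR adjusted p = 2.95e-14). IER2 was 1.33-fold higher in H1299 with BRM014 (edgeR adjusted p = 9.7e-09) and 1.59-fold higher with DMSO (edgeR adjusted p = 1.2e-12). The feedback genes ran in the opposite direction. DUSP1 in H1299 was at 8.92% of its A549 level with BRM014 (edgeR adjusted p = 1.63e-27) and at 8.80% with DMSO (edgeR adjusted p = 7.35e-28), nearly the same distance between the lines under both treatments. ZFP36 in H1299 was at 82.4% of its A549 level with BRM014 (edgeR adjusted p = 9.46e-05) and at 62.5% with DMSO (edgeR adjusted p = 8.79e-11). With library totals the BRM014 difference of ZFP36 was -0.09 on the log2 scale and did not pass (edgeR adjusted p = 0.142); that scaling moves the median line difference of all genes to 0.19 with BRM014 and 0.24 with DMSO.

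The stress genes IER3 and IER5 were also higher in A549. IER3 in H1299 stood at 7.17% of its A549 level with BRM014 (edgeR adjusted p = 5.02e-17) and at 7.95% with DMSO (edgeR adjusted p = 4.93e-17). IER5 in H1299 stood at 34.9% with BRM014 (edgeR adjusted p = 1.76e-19) and at 17.3% with DMSO (edgeR adjusted p = 2.88e-24). The narrower gap of IER5 under BRM014 comes with its deeper fall in A549.

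**Figure D4:**
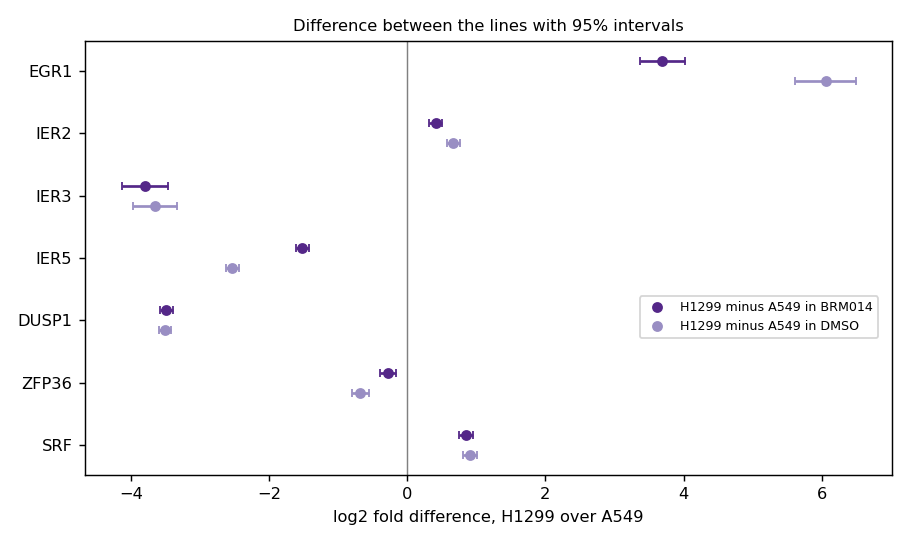
Log2 fold difference of H1299 over A549 for the 7 tested members, with BRM014 (dark) and with DMSO (light). Points are estimates and bars 95% intervals from 3 libraries a group. EGR1, IER2 and SRF lie to the right of 0 and IER3, IER5, DUSP1 and ZFP36 to the left, and EGR1 is at 3.69 with BRM014 and 6.06 with DMSO.

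Across the 4 groups, each gene has its own order of levels. EGR1 was highest in the H1299 groups, whose libraries overlapped, lower in A549 with BRM014 and lowest in A549 with DMSO. IER2 and SRF were also lowest in A549 and highest in H1299, with no overlap between the 4 groups for IER2, while for SRF the treatments overlapped within each line. IER3 was lowest in H1299 and highest in A549, and its treatments overlapped within each line. IER5 and DUSP1 shared 1 order without overlap, lowest in H1299 with BRM014, then H1299 with DMSO, A549 with BRM014 and A549 with DMSO. ZFP36 was lowest in H1299 with DMSO, next in H1299 with BRM014, then A549 with BRM014 and highest in A549 with DMSO, again without overlap. DUSP1 averaged 21.5 ± 0.280 CPM in H1299 with BRM014, 32.8 ± 1.77 in H1299 with DMSO, 240.8 ± 3.29 in A549 with BRM014 and 373.9 ± 9.80 in A549 with DMSO (SD, n = 3 each).

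The SDs were small against most of these steps. IER5 averaged 23.7 ± 0.694 CPM in H1299 with BRM014, 28.3 ± 1.60 in H1299 with DMSO, 67.9 ± 0.969 in A549 with BRM014 and 163.9 ± 4.72 in A549 with DMSO. ZFP36 averaged 21.7 ± 0.854, 18.6 ± 0.0250, 26.3 ± 0.764 and 29.7 ± 1.61 CPM in the same groups. Its 3 H1299 DMSO libraries were nearly equal. IER2 averaged 134.2 ± 1.46, 127.7 ± 1.76, 100.9 ± 6.16 and 80.4 ± 4.29 CPM, SRF averaged 100.4 ± 1.55, 104.7 ± 4.56, 55.7 ± 2.62 and 55.8 ± 4.56 CPM, and IER3 averaged 0.574 ± 0.137, 0.726 ± 0.117, 8.17 ± 0.818 and 9.05 ± 0.935 CPM in that order.

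Because SRF passed in neither line, raw counts are also given per 100 SRF counts of the same library, with SRF as the scale in place of the trimmed-mean factors. SRF was chosen for this after its values were seen, and the ratios carry no test. DUSP1 stood at 21.4 ± 0.156 per 100 SRF counts in H1299 with BRM014 and 31.4 ± 1.97 with DMSO, and at 432.8 ± 14.7 in A549 with BRM014 and 672.7 ± 37.7 with DMSO (SD, n = 3 each). IER5 stood at 23.6 ± 0.970 in H1299 with BRM014 and 27.1 ± 1.21 with DMSO, and at 122.1 ± 4.00 in A549 with BRM014 and 294.8 ± 15.1 with DMSO. Both genes were lower with BRM014 on this scale too. As SRF was chosen for its small change in CPM, the ratios follow the CPM values and are no independent check of them.

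EGR1 per 100 SRF counts was 8.42 ± 0.537 in H1299 with BRM014 and 8.38 ± 0.978 with DMSO, and 1.17 ± 0.206 in A549 with BRM014 and 0.242 ± 0.107 with DMSO. IER2 was 133.6 ± 2.07 in H1299 with BRM014 and 122.1 ± 5.96 with DMSO, and 181.2 ± 10.0 in A549 with BRM014 and 144.6 ± 10.2 with DMSO. Relative to SRF, IER2 thus had its highest ratio in A549 with BRM014, unlike its CPM, which was highest in H1299. SRF itself was 1.80-fold higher in H1299 than in A549 with BRM014 and 1.88-fold higher with DMSO. This raises every A549 ratio against those of H1299, so the ratios do not compare levels between the lines. ZFP36 was 21.6 ± 0.527 in H1299 with BRM014 and 17.8 ± 0.776 with DMSO, and 47.3 ± 1.05 in A549 with BRM014 and 53.3 ± 1.62 with DMSO. IER3 was 0.573 ± 0.144 in H1299 with BRM014 and 0.692 ± 0.0832 with DMSO, and 14.7 ± 0.777 in A549 with BRM014 and 16.2 ± 0.337 with DMSO. On this scale the A549 libraries of IER3 did not overlap between treatments, unlike in CPM. IER3 and SRF were both highest in BRM014 library a and in DMSO replicate 1, so the ratio removes part of that shared spread. The share of all genes without overlap on this scale was not taken, and IER3 did not pass in A549 (edgeR adjusted p = 0.356).

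**Figure D5:**
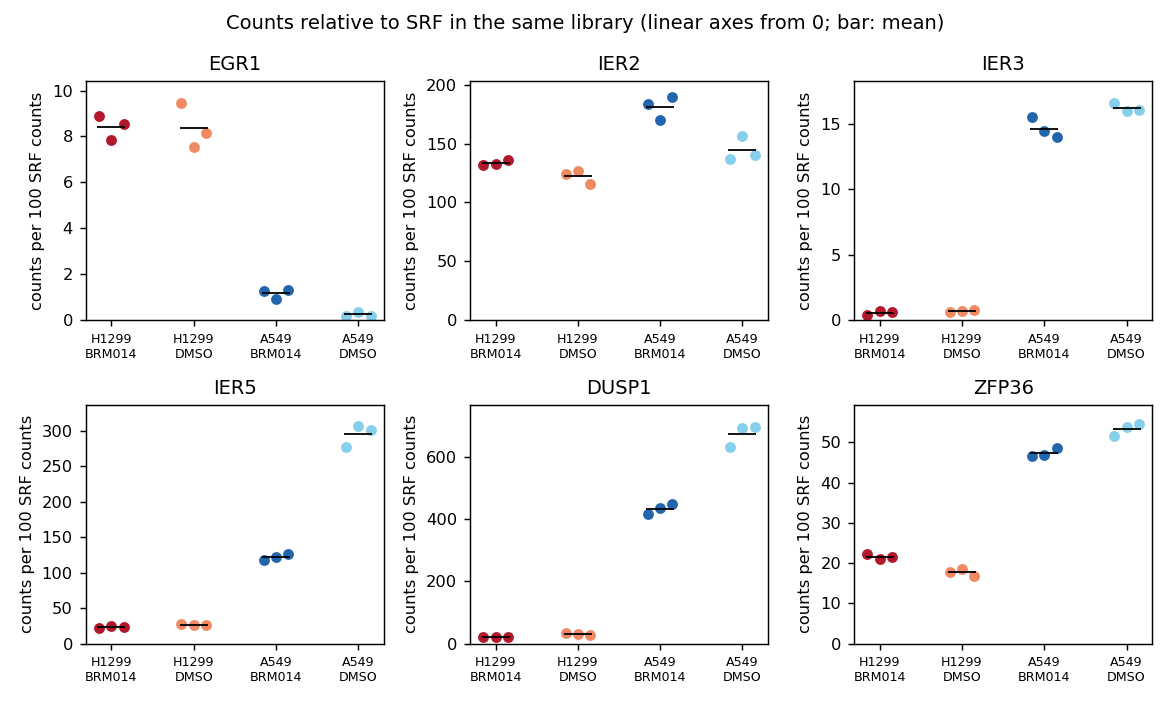
Raw counts of 6 members per 100 SRF counts of the same library, on linear axes from 0 that differ between panels. Points are libraries, 3 a group, and bars are means. IER2 averages 181.2 in A549 with BRM014, the highest of its 4 groups, and DUSP1 averages 432.8 in A549 with BRM014 and 672.7 with DMSO. SRF itself is lower in A549 than in H1299, which raises the A549 ratios.

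Likeness of pattern was measured as the root mean square difference of log2 CPM over the 12 libraries, with each gene centred on its own mean, and is a description with no test. IER3 and DUSP1 were nearest to each other among the members, at 0.284 on the log2 scale, with 38 of 13546 other genes nearer to IER3 than DUSP1 and 49 nearer to DUSP1 than IER3. IER2 and SRF were likewise each other's nearest member, at 0.219, but 2138 genes lay nearer to IER2 and 1725 nearer to SRF. IER5 was nearest to DUSP1 at 0.780 with 2415 genes nearer, and ZFP36 to IER2 at 0.543 with 7696 nearer. EGR1 had no close partner among the members: SRF, the nearest, was at 2.00, with 2739 genes nearer. The points share libraries and are dominated by the difference between the lines, so the measure mostly tells which genes stand higher in the same line.

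Over all 12 libraries of the tables, the 2 identifiers with the pattern most like EGR1 were ENSG00000141837 at 0.283 and ENSG00000151025 at 0.303, neither of which is named in the files. ENSG00000141837 averaged 12.9 ± 1.32 CPM in H1299 with BRM014 and 16.7 ± 2.15 CPM with DMSO, and 0.977 ± 0.206 CPM in A549 with BRM014 and 0.318 ± 0.169 CPM with DMSO (SD, n = 3 each). It was thus abundant in H1299, scarce in A549 and less scarce there with BRM014, as EGR1 was, but it was chosen for that likeness. In H1299 its mean was lower with BRM014. That of EGR1 was lower by less, at 8.46 CPM with BRM014 and 8.78 CPM with DMSO, and EGR1 did not pass there.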

How the data were processed

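RNA was measured by stranded, rRNA-depleted RNA-seq of 500 ng RNA in 12 of the 107 samples; the other 95 were not analysed here. The deposited files are raw counts per gene, made by the authors, with 24353 identifiers for A549 and 24019 for H1299. Per the submitters' processing notes, the series used cutadapt 1.14, Bowtie 1.2.2, STAR 2.7.3a, featureCounts, DESeq2 and hg38; the steps, the annotation and the strand setting behind these counts are not given there or in the labels. Spike-in RNA added by cell number, per the labels' protocols, was not used here. The A549 table repeats 1 header, and the 2 libraries under it have no replicate number.

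Each line was fitted alone for BRM014 against DMSO, and all 12 libraries together for the interaction and the line differences (edgeR 4.0.16 with limma 3.58.1, R 4.3.3). Genes passed the filter at its defaults of 10 counts in a library of median size and 15 in total, which left 15188 genes in A549, 14986 in H1299 and 16466 in the joined fit, and 7 of the 9 members in each. Scaling was TMM, tests were quasi-likelihood F tests, and p-values were Benjamini-Hochberg adjusted over all genes tested at 0.05. Each SE was taken as the size of the log2 fold change over the root of its F. Intervals of summed count ratios are exact and cover counting error only, as does the floor of 3 counts. The likeness measure took genes of at least 1 CPM and a prior count of 2. DESeq2 1.42.0 was an alternative. The scripts were tested on simulated data.

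The members and lists were chosen with earlier results of these data known. Genes were named by rule: all 9 members, the nearest other member of each, and the 2 identifiers nearest to EGR1. The 5 pathway lists and the cell markers, set by symbol, were not tested, since the name tables at hand are of another organism and matched 0 identifiers; the lines were therefore not checked against markers.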

Additional observations from a re-analysis of the deposited data

Results flagged for a closer look

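For 4 of the 7 tested genes BRM014 had unlike effects in H1299 and A549, beside 19.5% of all genes. The test was the interaction term of edgeR's fit over all 12 libraries, with 3 libraries a group. EGR1 gave -2.36 on the log2 scale (H1299 minus A549), with a change of -0.07 in H1299 and 2.32 in A549. In A549 with DMSO, EGR1 had only 4 to 7 counts a library. IER5 gave 1.01, with -0.26 in H1299 and -1.25 in A549. ZFP36 gave 0.40, with 0.22 in H1299 and -0.15 in A549, and its libraries with BRM014 all lay above those with DMSO in H1299 and below them in A549. The A549 value of ZFP36 did not itself pass (edgeR adjusted p = 0.0721). IER2 gave -0.26, with 0.07 in H1299 and 0.35 in A549. EGR1 and IER2 did not pass in H1299. The changes in each line come from the fit of that line alone, so they do not subtract exactly to the interaction. Without A549 BRM014 libraries a and b, a choice made after seeing the data, the differences were -2.46 for EGR1, 1.03 for IER5, 0.43 for ZFP36 and -0.26 for IER2. That fit keeps a lone A549 BRM014 library and still holds DMSO replicate 1. It therefore cannot show what the spread between the A549 libraries adds to these values.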

How the results depend on the processing

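Over other scalings (DESeq2's size factors, library totals), other filters, DESeq2 or limma-voom as the test, a joined fit and leaving out each library, 32 of 35 gene results kept their side of the threshold and, where called, their sign. None was reversed. The exceptions are ZFP36 in A549, which passed in the joined fit at -0.17 and without A549 BRM014 library a at -0.19, IER2 in H1299, at 0.10 with library totals, and ZFP36 between the lines with BRM014, at -0.09 with library totals. The count of members called was 3 to 4 in H1299, with 3 throughout when 1 library was left out, and 3 to 5 in A549, with 4 to 5 when 1 was left out. It was 4 in every alternative for the interaction, 7 in every one for the lines with DMSO, and 6 to 7 for the lines with BRM014. Beside these counts, the main fits called 22% of all genes in H1299, 37% in A549 and 19.5% for the interaction. Between the lines they called 85.7% of all genes with DMSO and 85.5% with BRM014. Those shares were not constant over the alternatives either. EGR1 in A549 stayed between 2.08 and 2.64 when 1 library was left out. In the 5 CPM filter, EGR1 was not tested in A549 and IER3 was not tested in H1299.

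With the replicate block, 3 members were called in H1299, 1 higher and 2 lower, beside 9.18% higher and 12.7% lower over all genes. Same-numbered H1299 libraries did not deviate together (r = -0.0857, -0.0255 and 0.0286 over genes). Libraries handled together need not share deviations, so these values cannot decide whether the numbers pair them. No block was fitted for A549 or for the interaction, since 2 A549 BRM014 columns carry no number of their own. Leaving out both was chosen after seeing the data, and the lone BRM014 library is then assumed to vary like the others. In A549 this fit gave log2 fold changes of 2.40 for EGR1, 0.33 for IER2, -1.29 for IER5 and -0.65 for DUSP1.

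Depth limits EGR2 and EGR3 in all groups, EGR1 in A549 with DMSO (4 to 7 counts a library) and IER3 in H1299.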

Other observations

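In A549, the deviations of BRM014 library a and DMSO replicate 1 from their group means were alike over genes (r = 0.693), and so were those of replicate 3 with BRM014 and replicate 3 with DMSO, the one pair that shares a number (r = 0.483). BRM014 replicate 3 and DMSO replicate 1 gave r = -0.628, but with deviations centred on means of 3 libraries these values are not independent of each other. They are across genes, which are not independent replicates, and carry no test. The members IER2, IER3, IER5, DUSP1, ZFP36 and SRF were each highest of their group in BRM014 library a and in DMSO replicate 1. EGR1 was also highest in BRM014 library a, but with DMSO it was highest in replicate 2.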
